A study of Mus musculus with 4 samples.

Results

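Genes of the Wnt pathway were followed on 4 single-colour arrays of mouse cells, 2 titled Hemangioblast and 2 titled hCD4. They were chosen by gene name, with earlier results of these data already known. The choice took in the Wnt ligands, the Frizzled receptors, Lrp5, Lrp6 and Lgr5. The secreted antagonists of the Sfrp and Dkk families entered with Frzb, and the Dvl and Axin genes with Apc and Ctnnb1. The last were the Tcf7-type factors with Lef1. A probe set, the group of oligonucleotides that reports 1 transcript, entered where the array annotation gave it a single gene symbol of this kind. This gave 52 of 12422 probe sets, which stand for 42 of 8251 named genes. They are 14 ligands, 11 receptors, 7 secreted antagonists, 7 cytoplasmic mediators and 3 nuclear mediators. For the other names of the choice, Gsk3b and Tcf7, 0 probe sets with a single symbol were found, and neither gene was analysed here.

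All cells came from 1 mouse embryonic stem (ES) cell line, Scl+/hCD4, in which human CD4 marks cells that express Scl, the Tal1 product and a master regulator of blood. The line, by the labels, was grown on STO feeder cells with LIF, moved to gelatin, and differentiated with fetal calf serum for 2.75 days. Embryoid body cells carrying both Flk-1 and Scl were then sorted as the hemangioblast population, and other embryoid body cells were replated and their blast colonies picked and pooled. The labels do not settle what each group holds. The Hemangioblast arrays have the source differentiated hemangioblasts, the hCD4 arrays have the source hCD4 ES cells, and the design text speaks of the populations hCD4 and Blast. The groups are therefore called by their titles, and every change is Hemangioblast minus hCD4. Whether both arrays of a group stand for separate cultures is not in the labels. The p-values and intervals therefore measure only the spread between arrays, which may be technical.

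Wnt proteins are secreted ligands that bind a Frizzled receptor together with Lrp5 or Lrp6. Binding recruits Dishevelled (Dvl) and stops a complex built on Axin and Apc from marking beta-catenin (Ctnnb1) for destruction, and beta-catenin then enters the nucleus and acts with Tcf7-type factors and Lef1. In the early embryo and in differentiating ES cells this signal is known for its part in forming the primitive streak and mesoderm, from which hemangioblasts arise.

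Of these genes only Lgr5, a receptor for R-spondins that is itself a known Wnt target, differed past the threshold, and it was lower on the Hemangioblast arrays. None of the ligands, Frizzled receptors, secreted antagonists, cytoplasmic mediators or nuclear mediators passed. At an unadjusted p under 0.05 there were 0 ligands, 1 Frizzled receptor (Fzd2), 1 antagonist (Sfrp4), 0 cytoplasmic and 0 nuclear mediators. The threshold was an adjusted p of 0.05 in limma, with Benjamini-Hochberg adjustment over all 12422 probe sets. Counted as probe sets, 1 of 52 members passed (1.92%), where 4.48% of all probe sets did. Counted as genes, with each gene given by its probe set of highest mean, 1 of 42 passed (2.38%, against 5.38% of all genes), and 3 had an unadjusted p under 0.05 (against 18.3% of all genes). The call of Lgr5 was in the lower direction, in which 1.95% of all genes passed, and 0 members were called higher, where 3.43% of all genes were. The median log2 change was -0.01 over the 42 members and 0.02 over all genes.

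**Figure D1:**
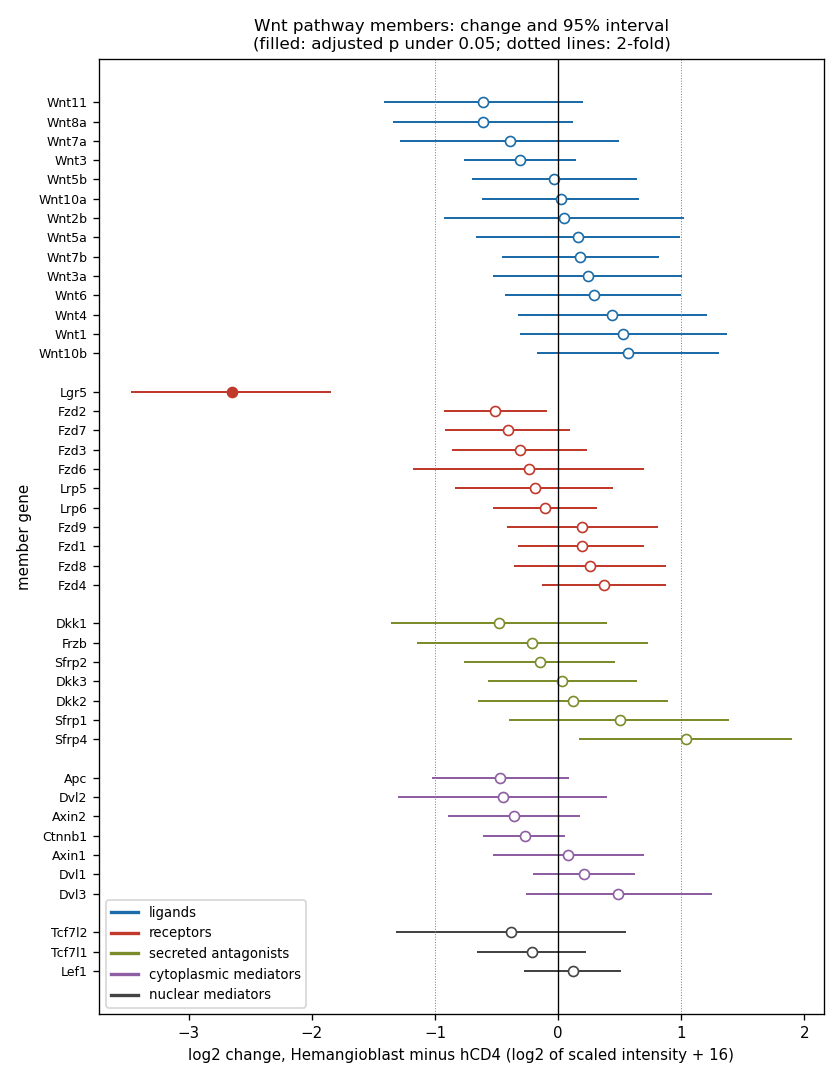
Log2 change (Hemangioblast minus hCD4, horizontal axis) of each of the 42 member genes (vertical axis, grouped by role), with its 95% interval as a line; filled points passed an adjusted p of 0.05 and dotted lines mark 2-fold. The point of Lgr5 lies at -2.65 and is the only filled one, while the other 41 members lie between -0.61 and 1.04.

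The scaled intensity of Lgr5 was 16.7 and 20.4 on the Hemangioblast arrays, against 256 and 158 on the hCD4 arrays. Both Hemangioblast arrays were low and close together, the hCD4 arrays differed from each other, and the groups did not overlap. The log2 change was -2.65 (SE 0.351, limma adjusted p = 0.00444, 95% interval -3.46 to -1.85), where values are log2 of scaled intensity plus 16. The added 16 is close to the level on the Hemangioblast arrays and therefore sets part of the size. With 1 added in its place the change was -3.38, and with 64 it was -1.69. Lgr5 stayed past the threshold under all 13 alternatives tried, with adjusted p-values from 0.000205 to 0.0373. The highest came without hCD4 replicate 1. Each Hemangioblast array was also set against each hCD4 array, with the 16 added. On these values Lgr5 was the 1 member gene at least 2-fold apart one way in all 4 pairs. This held for 3.19% of all genes in either direction and for 0.679% in the lower one. That Lgr5 stood alone depends on the added 16. Before it was added, the dim antagonist gene Sfrp4 (30.6 and 29.8 against 2.14 and 12.0) was also at least 2-fold higher in every pair.

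Markers of other cell states moved in the same comparison, in which 3.43% of all genes were called higher and 1.95% lower. Of 8 markers of pluripotent and early embryonic cells, 2 fell and 0 rose, and their summed scaled intensity was 1212 to 1231 on the Hemangioblast arrays and 2305 to 4658 on the hCD4 arrays. Pou5f1, the gene of the pluripotency factor Oct4, was at 104 and 144 on the Hemangioblast arrays and at 1526 and 585 on the hCD4 arrays. Of 7 measured primitive streak and nascent mesoderm markers, 1 fell, and their sum was 1725 to 2522 against 2435 to 2819. Both Hemangioblast arrays were lower for 6 of the 7, beside 22.0% of all genes, and the median log2 change was -0.73. The other marker, Hand1, was higher without passing and weighs much in the sum, at 1890 and 853 against 443 and 579. In the lists for blood, 9 of 12 myeloid and 7 of 9 measured erythroid markers rose, with sums of 6904 to 7770 against 689 to 708 and of 38561 to 40982 against 13399 to 14347. Of 8 hemangioblast markers, 3 fell and 0 rose, with sums of 3666 to 4142 against 6632 to 8105. The Flk-1 gene Kdr was at 648 and 570 on the Hemangioblast arrays and at 1625 and 2003 on the hCD4 arrays. Among fibroblast markers, which feeder or stromal cells could supply, 1 of 10 rose and 1 fell, and the sums were 2313 to 2768 against 2170 to 2364. Of endothelial markers 3 of 8 rose (sums of 4613 to 5231 against 3104 to 3557), of endoderm markers 1 of 8 fell (1039 to 1201 against 1419 to 1551), of muscle markers 1 of 9 rose (2923 to 3342 against 3194 to 3405), and of 6 measured neural markers 0 passed in limma, adjusted or unadjusted (2433 to 2728 against 2770 to 2859). The part of these cell states in the result for Lgr5 was not tested. In RNA from mixed cells, fewer cells of a type and less RNA per cell cannot be told apart.

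Promoter windows were read from RefSeq (build GRCm38.p6), from 250 bases before to 50 after the transcript start. Of the 42 member genes, 26 had a window used here, with 34 windows in all. Lgr5 was not among them, so its promoter was not searched. The core sequence bound by TCF/LEF factors, CTTTGAT, or its complement ATCAAAG on the other strand, was found in 2 of the 34 windows (5.88%), where 3.73% of all 32851 windows of this length held it. The 2 windows belong to the ligand genes Wnt11 and Wnt5b and are shown because they are the member windows with such a match, which is marked in capitals. The Wnt11 window with the match, one of a pair for this gene, lies at chr7:98834862-98835161 on the plus strand, with the match at bases -51 to -45 from the start. The Wnt5b window, one of several for this gene, lies at chr6:119449337-119449636 on the minus strand, with the match at bases -71 to -65.
Wnt11: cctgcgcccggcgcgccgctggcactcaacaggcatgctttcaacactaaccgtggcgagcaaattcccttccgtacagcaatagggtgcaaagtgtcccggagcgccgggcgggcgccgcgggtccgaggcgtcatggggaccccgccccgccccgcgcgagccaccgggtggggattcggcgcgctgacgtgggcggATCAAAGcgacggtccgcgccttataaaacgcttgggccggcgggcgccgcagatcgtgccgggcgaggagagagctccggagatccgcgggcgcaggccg
Wnt5b: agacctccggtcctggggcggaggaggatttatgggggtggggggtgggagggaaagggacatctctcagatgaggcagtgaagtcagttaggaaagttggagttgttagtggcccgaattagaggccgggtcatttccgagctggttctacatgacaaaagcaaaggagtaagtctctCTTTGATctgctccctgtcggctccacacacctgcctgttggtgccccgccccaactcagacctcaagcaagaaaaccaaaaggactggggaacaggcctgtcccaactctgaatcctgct
A match is a description of the letters and not a measured binding site. The member windows were rich in G and C, with a median of 68.7% against 52.7% over all windows, and their median ratio of observed to expected CpG was 0.749 against 0.384. On the arrays Wnt11 had a log2 change of -0.61 and Wnt5b of -0.03, and neither passed the threshold.

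Among the 14 ligands, 0 passed, and their log2 changes ran from -0.61 to 0.57 with a median of 0.10. The groups did not overlap for 8 of them, with 5 higher and 3 lower in the Hemangioblast group. Over all members the groups did not overlap for 21 of 42 genes, close to the 46.6% of all genes for which this held. By direction this was 11 members higher and 10 lower, beside 24.5% and 22.0% of all genes.

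Wnt8a, a ligand of early embryos, was at 59.6 and 79.8 on the Hemangioblast arrays and at 103 and 126 on the hCD4 arrays. Both Hemangioblast arrays were lower, but the log2 change of -0.61 missed the threshold (SE 0.315, limma adjusted p = 0.407). Wnt11, a ligand known for signalling without beta-catenin, was at 30.5 and 23.8 against 58.7 and 41.7. It was again lower on both Hemangioblast arrays, with an adjusted p of 0.469 in limma. Wnt3, the ligand needed for the primitive streak in the mouse, was at 341 and 290 against 382 and 407. These groups did not overlap either, and the log2 change was -0.31 (SE 0.195, limma adjusted p = 0.520). Its 95% interval, -0.76 to 0.14, does not reach 2-fold.

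Wnt10b pointed the other way. Its brightest probe set was at 77.4 and 82.4 on the Hemangioblast arrays and at 44.8 and 52.6 on the hCD4 arrays. Another was at 69.7 and 45.5 against 29.2 and 29.6, and the last at 46.8 and 64.7 against 48.0 and 44.4. The groups were apart in the brightest and the next and overlapped in the last, with log2 changes of 0.57, 0.68 and 0.20, none past the threshold (limma adjusted p = 0.459, 0.410 and 0.866). Wnt1, the founding member of the family and the next coding gene to Wnt10b in the RefSeq order, was at 207 and 342 against 253 and 127. Its groups overlapped because the arrays of each group lay far apart, and the log2 change of 0.53 had an SE of 0.360 (limma adjusted p = 0.560). Wnt6 and Wnt10a, another pair of neighbours, had log2 changes of 0.29 and 0.02.

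Wnt3a, which in the mouse embryo is expressed in the primitive streak after Wnt3, was at 41.7 and 42.6 against 34.0 and 32.6. Its arrays agreed closely within each group, and the change of 0.24 was small (SE 0.332, limma adjusted p = 0.827). Wnt4 was at 55.5 and 49.3 against 33.3 and 35.4, a log2 change of 0.44. Wnt7b had a log2 change of 0.18, and for both genes the Hemangioblast arrays were the higher ones without passing. Wnt5a, a ligand that often signals without beta-catenin, was at 80.7 and 156 against 89.2 and 110. The Hemangioblast arrays enclosed the hCD4 arrays here, so no direction can be read. Groups overlapped also for Wnt2b, Wnt5b, Wnt7a and Wnt10a, whose log2 changes were 0.05, -0.03, -0.39 and 0.02. The mean scaled intensity over the 4 arrays was at least 50 for 34 of the 42 members, against 89.0% of all genes. It was under 50 for 5 of the 14 ligands, where the added constant shrinks a change the most.

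Among the 8 Frizzled receptors, 0 passed, 4 had a log2 change above 0 and 4 below, and the median was -0.03. Fzd2 came nearest. It was at 438 and 548 on the Hemangioblast arrays and at 711 and 702 on the hCD4 arrays. Both Hemangioblast arrays were lower, with a log2 change of -0.51 (SE 0.179, limma adjusted p = 0.184, unadjusted p = 0.0202). Its 95% interval ran from -0.92 to -0.10 and so stayed within 2-fold. Under the 13 alternatives the change of Fzd2 ran from -0.67 to -0.36, and its adjusted p from 0.134 to 0.530.

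Fzd7, a Frizzled receptor of ES cells, was at 201 and 198 against 279 and 262. Arrays of a group agreed closely and the groups were apart, with a log2 change of -0.41 (SE 0.218, limma adjusted p = 0.426). Fzd3 was at 190 and 243 against 248 and 294, a log2 change of -0.31 (adjusted p = 0.624 in limma). By its other probe set the change was -0.17. Fzd4, which also serves as a receptor of the ligand norrin in blood vessels, was at 301 and 334 against 264 and 220. The Hemangioblast arrays were higher by this probe set (log2 change 0.37, limma adjusted p = 0.476), while its other probe sets gave 0.44 and -0.04 with overlapping groups. Fzd8 and Fzd9 were also higher on both Hemangioblast arrays, by 0.26 and 0.19 on the log2 scale, and for Fzd1 and Fzd6 the groups overlapped (0.19 and -0.24).

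The co-receptor genes Lrp5 and Lrp6 overlapped between groups. Lrp6 was at 492 and 457 on the Hemangioblast arrays and at 560 and 467 on the hCD4 arrays, and its log2 change of -0.11 had a 95% interval of -0.52 to 0.31. By its other probe set the change was also -0.11. Lrp5 was at 175 and 295 against 250 and 275, a log2 change of -0.19 with an interval of -0.83 to 0.44. The other 10 receptors therefore stood apart from Lgr5, with changes between -0.51 and 0.37, though the difference between Lgr5 and these receptors was not tested.

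**Figure D2:**
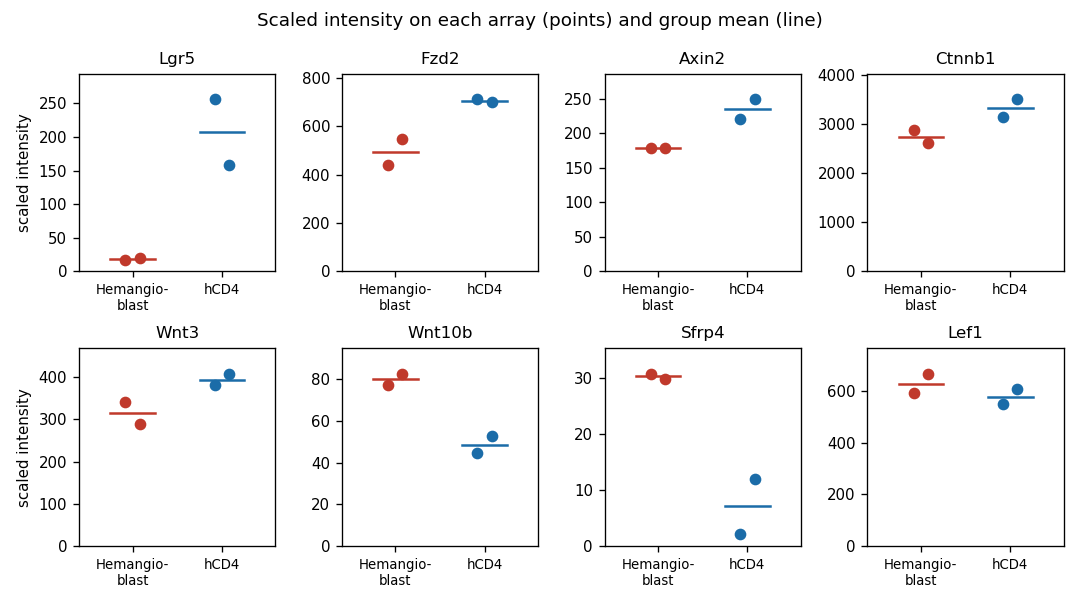
Scaled intensity (vertical axes, each from 0) of 8 member genes on the 2 Hemangioblast arrays (red points) and the 2 hCD4 arrays (blue points), with the group mean as a line. Lgr5 falls from a mean of 207 to 18.5, while Fzd2, Axin2, Ctnnb1 and Wnt3 lie lower and Wnt10b and Sfrp4 higher on the Hemangioblast arrays without passing the threshold, and the points of Lef1 overlap.

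The secreted antagonists gave 0 calls among 7 genes. Sfrp4, a Frizzled-like protein that binds Wnt ligands, had the largest change above 0 of any member. It was at 30.6 and 29.8 on the Hemangioblast arrays and at 2.14 and 12.0 on the hCD4 arrays. The Hemangioblast arrays were close together and higher, yet all 4 values are dim, and the log2 change of 1.04 (SE 0.372) missed the threshold (limma adjusted p = 0.200, unadjusted p = 0.0233). With 1 added before the log the change was 2.29 and with 64 it was 0.41, so its size is not settled. Sfrp1 was at 128 and 89.6 against 102 and 48.5. Its groups overlapped, with a log2 change of 0.50 (SE 0.385, limma adjusted p = 0.628).

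Sfrp2 was at 283 and 404 against 307 and 465, where the replicate 2 array of each group was the higher one. Its log2 change was -0.15 (limma adjusted p = 0.865). Frzb was at 6.50 and 1.05 against 14.1 and 1.09, too dim on every array for a change to be read. Dkk1, which blocks Lrp5 and Lrp6 and is a known Wnt target, was at 32.9 and 55.4 against 84.5 and 51.4. The groups overlapped and the log2 change was -0.48 (SE 0.377, limma adjusted p = 0.638). Dkk2 and Dkk3 had log2 changes of 0.12 and 0.03, also with overlapping groups.

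In the cytoplasm, 0 of 7 genes passed. Ctnnb1, the gene of beta-catenin, was at 2885 and 2606 on the Hemangioblast arrays and at 3145 and 3502 on the hCD4 arrays. The Hemangioblast arrays were the lower ones, by a log2 change of -0.27 (SE 0.143, limma adjusted p = 0.414). Its 95% interval of -0.60 to 0.05 includes a modest fall and does not reach 2-fold. RNA levels do not show the amount of beta-catenin protein, which the pathway controls through destruction.

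Axin2, a scaffold of the destruction complex that is widely used as a readout of Wnt signalling because it is a direct target, was at 179 and 179 against 221 and 249. The groups did not overlap, and the log2 change was -0.36 (SE 0.231, limma adjusted p = 0.527, 95% interval -0.89 to 0.17). Under the alternatives it ran from -0.44 to -0.28 and never passed. Lgr5, another known target, had a change of -2.65, and the difference between the changes of both genes was not tested. Axin1, the constitutive scaffold, was at 309 and 405 against 420 and 263, with overlapping groups and a log2 change of 0.08.

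Apc, another scaffold of the complex, was at 204 and 303 against 367 and 336. Both Hemangioblast arrays were lower, with a log2 change of -0.47 (SE 0.240, limma adjusted p = 0.404). The Dishevelled genes had changes of both signs. Dvl1 was at 564 and 491 against 434 and 474, and Dvl3 at 66.2 and 82.4 against 45.1 and 50.7. Both were higher on the Hemangioblast arrays, by 0.21 and 0.49 on the log2 scale, without passing (limma adjusted p = 0.674 and 0.545). Dvl2 was at 108 and 115 against 232 and 107, so that its log2 change of -0.45 rested on hCD4 replicate 1. Without that array its change was 0.05, and a second, dim probe set gave 0.41.

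The nuclear mediators also gave 0 calls among 3 genes, and the groups overlapped for each. Lef1, an activating partner of beta-catenin, was at 590 and 664 on the Hemangioblast arrays and at 548 and 606 on the hCD4 arrays. The ranges met, with a log2 change of 0.12 and a 95% interval of -0.27 to 0.50 (limma adjusted p = 0.835). Its other probe set gave -0.16. Tcf7l1, which represses Wnt targets in ES cells, was at 499 and 412 against 570 and 488, a log2 change of -0.21 (95% interval -0.65 to 0.22, limma adjusted p = 0.689). Its other probe set gave -0.14. For both genes the interval, which rests on the spread between arrays, stays within 2-fold in either direction. Tcf7l2 was at 70.5 and 186 against 161 and 152. The Hemangioblast arrays lay on both sides of the hCD4 arrays, and the log2 change of -0.38 had an SE of 0.402.

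A miss of the threshold does not show equal levels, so the intervals were counted. The 95% interval of the log2 change lay inside 2-fold in both directions for 24 of the 42 members, where 65.1% of all genes had such an interval. It lay inside for 9 of 11 receptors, 6 of 14 ligands, 3 of 7 antagonists, 4 of 7 cytoplasmic mediators and 2 of 3 nuclear mediators. For the other 17 members besides Lgr5, a 2-fold difference in at least 1 direction is not excluded at this number of arrays. The change exceeded the difference between the 2 arrays of either group for 19 of 42 members, against 35.2% of all genes. The median difference between the arrays of a group was 0.22 for the members on the Hemangioblast side and 0.24 on the hCD4 side, on the log2 scale. The median change, taken without its sign, was 0.28 for the members and 0.24 for all genes.

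**Figure D3:**
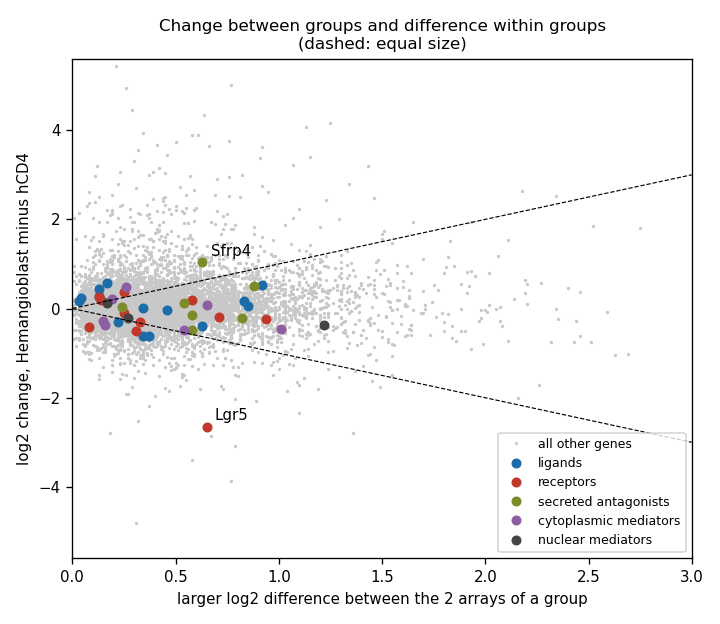
Log2 change between groups (vertical axis) against the larger log2 difference between the 2 arrays of a group (horizontal axis), for the 42 members (coloured by role) and all other genes (grey), with dashed lines where both are equal. Lgr5 lies far outside the dashed lines at a change of -2.65, Sfrp4 lies just outside at 1.04, and the change exceeded both replicate differences for 19 of the 42 members.

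More than 1 probe set was present for 8 members, and in none of them did any probe set pass. The signs of the probe sets differed for 4 of these genes, Dvl2, Fzd4, Lef1 and Tcf7l2, and agreed for Fzd3, Lrp6, Tcf7l1 and Wnt10b. Leaving Lgr5 aside, the sign of a member's change was itself unstable in many cases. For 26 of the 42 members, Lgr5 included, the sign was the same under every alternative that tested them, and for 16 it turned under at least 1.

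Other genes of the pathway were counted from lists of modulators, receptors and partners, also chosen with earlier results of these data known. Of 48 measured genes in these 4 lists, 2 fell and 0 rose (4.17%, against 5.38% of all genes), and 32 of the 48 (66.7%) had a change below 0, where 47.5% of all genes did. Among the 7 measured genes of Wnt release and the extracellular space, 1 fell. This was Gpc3, a cell-surface proteoglycan that modulates growth factor signals, at 330 and 265 against 811 and 670. Both Hemangioblast arrays were lower, with a log2 change of -1.27 (SE 0.197, limma adjusted p = 0.0102). The call was lost without hCD4 replicate 1 (adjusted p = 0.0998) and without hCD4 replicate 2 (0.0517), with changes of -1.14 and -1.41. Gpc4, the endoderm gene Cer1, which encodes a secreted antagonist, and Wls, which carries Wnt proteins to the cell surface, had log2 changes of -0.46, -0.24 and -0.17 and did not pass.

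Of 9 measured receptors and planar polarity genes outside the Frizzled family, 0 passed in limma, also at an unadjusted p under 0.05. The smallest adjusted p-values in limma belonged to the receptor gene Ryk (log2 change -0.46, adjusted p = 0.352) and the kinase gene Mapk8 (-0.41, 0.456), both lower on the Hemangioblast arrays by their brightest probe set. Their other probe sets gave 0.09 and 0.27, and the means over probe sets were -0.19 for Ryk and -0.07 for Mapk8. Of 18 measured cytoplasmic regulators, 0 passed in limma, and 4 had an unadjusted p under 0.05, beside 18.3% of all genes. Csnk2a2, a subunit of casein kinase 2, was at 413 and 347 against 605 and 683, and the cadherin gene Cdh2 was at 180 and 153 against 595 and 298. Both were lower on the Hemangioblast arrays and missed the threshold (log2 changes -0.74 and -1.27, limma adjusted p = 0.0660 and 0.0685). The other probe sets of Csnk2a2 gave -0.08 and 0.14, and the mean over its probe sets was -0.23. Without hCD4 replicate 1 the change of Cdh2 was -0.79. Ctnna1, which links beta-catenin at cell junctions to actin, had a log2 change of -0.59 (limma adjusted p = 0.163), while its other probe set gave 0.23 and the mean of both -0.18.

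Of 14 measured nuclear partners, 1 fell (7.14%, against 5.38% of all genes). An unadjusted p under 0.05 in limma was found for 5, beside 18.3% of all genes. Ruvbl2, an ATPase of chromatin complexes that binds beta-catenin, was at 1250 and 1127 against 1835 and 2439 (log2 change -0.83, SE 0.174, limma adjusted p = 0.0371). Without hCD4 replicate 2 its adjusted p was 0.299 and the change -0.62, and the call was also lost without hCD4 replicate 1 (0.0702) or Hemangioblast replicate 2 (0.0932). Its partner Ruvbl1 was at 1119 and 1104 against 1614 and 2091 and missed the threshold (-0.72, limma adjusted p = 0.0527). Its other probe set gave -0.12, and the mean of both was -0.42 (adjusted p = 0.235 in limma). Tle5, a short member of the Groucho family of co-repressors, was at 528 and 728 against 239 and 354. Both Hemangioblast arrays were higher, with a log2 change of 1.05 and an adjusted p of 0.0554 in limma. The chromatin ATPase gene Smarca4 had a log2 change of -0.45 (limma adjusted p = 0.152).

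Of 33 measured genes known as Wnt targets in one tissue or another, 4 fell and 1 rose, which is 15.2% against 5.38% of all genes, and the median log2 change was -0.17. Many of them answer to other signals as well. Eomes, Mesp1, Gsc and Fgf8 are also in the list of primitive streak markers above, so these lists are not independent. The fall of Eomes was counted in both. Eomes, a transcription factor of the early mesoderm and endoderm, was at 90.9 and 154 on the Hemangioblast arrays and at 1084 and 853 on the hCD4 arrays. The groups were far apart (log2 change -2.86, SE 0.264, limma adjusted p = 0.000703), and a second probe set gave -3.51.

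Ccnd1, the gene of cyclin D1, was at 526 and 381 against 1164 and 1114 (log2 change -1.31, limma adjusted p = 0.00704), while a second probe set gave -0.31 (adjusted p = 0.550). Myc was at 185 and 146 against 398 and 388, with a log2 change of -1.18 (SE 0.223, limma adjusted p = 0.0236). Mycn, its relative of early embryonic cells, was at 317 and 130 against 817 and 689 (-1.80, SE 0.350, adjusted p = 0.0266 in limma), while a dim second probe set gave 0.35 (0.760). In all 3 genes both Hemangioblast arrays were lower by the brighter probe set.

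Without scaling of the arrays or without an intensity trend in the fit, Eomes stayed past the threshold, and the calls of Ccnd1, Myc, Mycn, Id2, Gpc3 and Ruvbl2 were lost, with adjusted p-values in limma from 0.0610 to 0.118 and from 0.0772 to 0.205. Their changes were of like size, at -1.29, -1.16, -1.77, 1.47, -1.25 and -0.80 without scaling, and leaving out the trend alters no change itself. The adjusted p of Mycn was 0.0527 with quantile normalization and 0.257 as the mean of its probe sets, and that of Ruvbl2 was 0.0689 with median scaling. Without hCD4 replicate 1 or hCD4 replicate 2 the adjusted p-values were 0.0717 and 0.0659 for Ccnd1, 0.145 and 0.146 for Myc, and 0.162 and 0.123 for Mycn. Their changes stayed close to those with all arrays, from -1.35 to -1.28 for Ccnd1, -1.20 to -1.16 for Myc and -1.92 to -1.68 for Mycn. The adjusted p of Myc was 0.0851 without Hemangioblast replicate 2. With 1 array of a group left out, the lone array is assumed to vary like the other group. Id2, an inhibitor of basic helix-loop-helix factors that BMP signals also induce, was the target that rose, at 1794 and 1402 against 740 and 440 (log2 change 1.45, SE 0.248, limma adjusted p = 0.0156). Without hCD4 replicate 2 its change was 1.08 and its adjusted p 0.0909. Fgf8, Bmp4 and Gsc had log2 changes of -1.56, -0.44 and -0.87 and did not pass (limma adjusted p = 0.0846, 0.226 and 0.263).

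**Figure D4:**
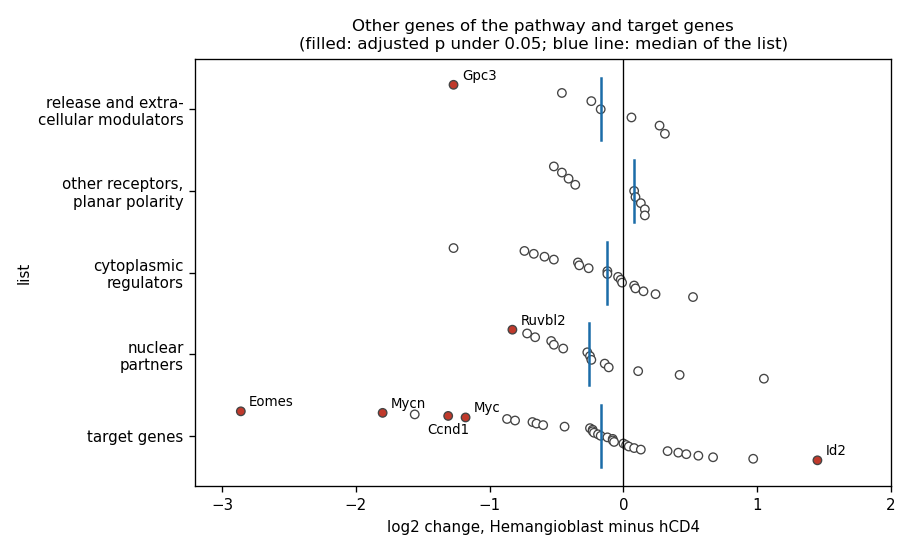
Log2 change (horizontal axis) of the genes of the 4 other pathway lists and of the target genes (vertical axis, 1 row per list), with filled points past an adjusted p of 0.05 and a blue line at the list's median. Gpc3, Ruvbl2, Eomes, Mycn, Ccnd1 and Myc are filled on the lower side and Id2 on the higher, and the medians lie between -0.26 and 0.08.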

How the data were processed

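Intensities of biotin-labelled RNA were analysed for 4 arrays, 2 titled Hemangioblast and 2 titled hCD4. Per the labels, 20 ug of total RNA per sample was extracted with TRIzol, not amplified, and reverse transcribed and labelled. For every array the authors deposited a linear intensity of each probe set. Which software, background correction and scaling made it was not given in the sources used here. Arrays carry no read depth, and their number limits the precision.

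The 66 array controls were left out. Each array was scaled to the mean of the arrays' trimmed means (2% off each end), with factors from 0.936 to 1.09, and log2 of scaled intensity plus 16 was taken. Between 1.16% and 1.27% of an array's values were exactly 1. The Hemangioblast minus hCD4 contrast was tested two-sided, without a block, over 12422 probe sets by lmFit and eBayes with an intensity trend (limma 3.58.1, R 4.3.3). Residual degrees of freedom were 2 and prior ones 6.18. A simulation with changes placed only in probe sets above the median intensity was run. It does not cover dimmer probe sets, and no result here rests on it. An exact permutation test of 2 against 2 arrays cannot pass the threshold and was not used. Figures were drawn with matplotlib 3.10.9.

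Gene symbols came from the platform annotation, and all 52 member symbols matched RefSeq (GRCm38.p6) by gene identifier. Members given with every array are those past the threshold and the 5 of smallest adjusted p in each role, and from other lists those past the threshold and up to 3 more. Array values for Wnt3a, Wnt4, Wnt5a, Lrp5, Lrp6, Axin1, Dvl1, Kdr, Pou5f1 and Ruvbl1 were added after they were seen. Members, lists and tests were chosen with earlier results of these data known. The alternatives were an added constant of 1 or 64, median, quantile or no scaling, probe sets averaging under 50 left out, no intensity trend, a replicate block, the mean of a gene's probe sets, and each array left out.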

Additional observations from a re-analysis of the deposited data

How the results depend on the processing

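The single call among the members, Lgr5, and the member counts of 1 lower and 0 higher were the same under all alternatives run. The member median of -0.01 was -0.11 with quantile normalization, and -0.12 to 0.14 with 1 array left out, without hCD4 replicate 2 and without Hemangioblast replicate 1. Over all probe sets the count of 556 was 272 without scaling, 883 without dim probe sets and 220 without an intensity trend, and 219 to 517 with 1 array left out. The 2 calls among 48 other pathway genes became 5 with an added constant of 1, 1 with median scaling, 0 without scaling, 6 without dim probe sets, 0 without an intensity trend, and 0 to 4 with 1 array left out. The 5 calls among target genes became 1 without scaling and 1 without an intensity trend, and 1 to 6 with 1 array left out. Deviations from the group mean had a correlation of -0.008 between arrays with the same replicate number. With 2 arrays per group, both numbers give this same value by construction. It cannot show whether arrays with the same number shared a culture or batch, on which the labels are silent. With the replicate block, the other pathway genes had 5 calls, all probe sets 710, and Lgr5 an adjusted p of 0.00647. The change of 16 members that were not called turned sign. It was -0.02, -0.04 and -0.06 for Wnt2b, Dkk3 and Wnt10a with median scaling, -0.19, -0.06, -0.06 and -0.07 for Wnt2b, Dkk2, Dkk3 and Wnt10a with quantile normalization, and -0.02 for Lef1 as the mean of its probe sets. With 1 array left out, changes ranged from -0.62 to 0.20 for Frzb, -0.38 to 0.47 for Wnt2b, -0.71 to 0.23 for Fzd6, -0.15 to 0.39 for Dkk2, -0.25 to 0.57 for Wnt5a and -0.96 to 0.05 for Dvl2. They ranged from -0.99 to 0.23 for Tcf7l2, -0.09 to 0.16 for Dkk3, -0.15 to 0.19 for Wnt10a, -0.26 to 0.20 for Wnt5b, -0.55 to 0.16 for Lrp5 and -0.24 to 0.41 for Axin1, and from -0.44 to 0.13 for Sfrp2, -0.23 to 0.02 for Lrp6 and -0.10 to 0.47 for Fzd1. Outside the members, Wls ranged from -0.36 to 0.02. The cause of these shifts was not tested. Dim members such as Frzb and Sfrp4 are limited by signal, and the alternative that drops dim probe sets gives them no value.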
